A study of Mus musculus with 6 samples.

Results

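The cytosolic ribosomal protein genes were examined in brain RNA of Angptl2-/- and Angptl2+/+ mice at postnatal day 15. Members were the protein-coding rows of the deposited gene table whose GENCODE M21 symbol begins with Rpl or Rps and a digit, together with Rpsa, Rplp0, Rplp1 and Rplp2. Ribosomal S6 kinases, paralogues with symbols ending in l, l1 or bp1, and pseudogenes were left out. This rule took 78 of 54532 genes, 46 of the large and 32 of the small ribosomal subunit. The symbols of the rule do not take Fau and Rack1, which also encode ribosomal proteins and are described at the end.

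The study asked how loss of ANGPTL2, a secreted protein that it places upstream of oligodendrocyte differentiation, alters gene expression in the brain. The samples were 3 Angptl2-/- and 3 Angptl2+/+ brain libraries, all from postnatal day 15 and given by the labels as all cell types of the brain. The Angptl2-/- line, on a C57BL/6 background, carried a deletion of exon 2 made by crossing male Angptl2 fl/fl; stra8-cre mice, in which Cre acts in male germ cells, with wild-type females. Neither the labels nor the methods describe the dissection or tie each library to its own mouse, and p-values therefore measure the spread among libraries, which may be technical in part. By the expression of Xist and Y-linked genes described below, each genotype held libraries of both sexes and thus of more than 1 mouse. In bulk tissue, fewer cells of a type and less RNA per cell cannot be told apart. Gene levels were given as FPKM, the fragments per kilobase of summed exon length scaled to library depth, which can be compared between genes per length of annotated exon.

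A cytosolic ribosome joins a small subunit, which reads the mRNA, to a large subunit, which forms the peptide bond and releases the chain through an exit tunnel. Nearly all of these proteins are present once per ribosome, and most of their genes are transcribed at high levels in every cell type. Their mRNAs begin with a C and a run of pyrimidines, the 5′ terminal oligopyrimidine (TOP) tract, through which their translation follows nutrient signalling. The same mRNAs have been copied back into mammalian genomes many times, which left intronless processed pseudogenes and a few functional retrogenes.

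Sequence comparison set the limits of what could be assigned to 1 gene, so the relevant stretches are given first. Coding sequences of the GENCODE M21 annotation (GRCm38) were compared with all annotated transcripts, and a copy was taken as near-identical where it matched at least 95% of the bases over at least 90% of the coding sequence. Positions are counted from 1 at the A of the start codon, and capitals mark the bases that differ. Rpl34 (chromosome 3, 130726831 to 130730398, minus strand) and its processed pseudogene Rpl34-ps1 (chromosome 6, 71124610 to 71124963, plus strand) shared 352 of 354 coding bases and differed at T132C and C318G. The stretch from position 112 to 171 holds the first of these differences:
Rpl34: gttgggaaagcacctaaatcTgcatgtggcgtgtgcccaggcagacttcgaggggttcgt
Rpl34-ps1: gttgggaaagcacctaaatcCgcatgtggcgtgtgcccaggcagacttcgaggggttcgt
Rpl3 (chromosome 15, 80077791 to 80091868, minus strand) and Rpl3-ps1 (chromosome X, 13202571 to 13203780, plus strand) shared 1207 of 1209 aligned bases, with C57A and T786C. Positions 37 to 96 are shown for both:
Rpl3: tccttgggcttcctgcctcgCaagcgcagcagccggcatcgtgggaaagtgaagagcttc
Rpl3-ps1: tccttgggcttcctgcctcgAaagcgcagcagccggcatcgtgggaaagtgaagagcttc
Rpl30 (chromosome 15, 34440505 to 34443640, minus strand) had a pair of copies with many fragments, Rpl30-ps10 (chromosome X, 71803688 to 71804034, plus strand) with G10T, C20T and G96A, and Gm12191 (chromosome 11, 49678710 to 49679057, minus strand) with G96A alone. Positions 1 to 60 separate Rpl30 from Rpl30-ps10:
Rpl30: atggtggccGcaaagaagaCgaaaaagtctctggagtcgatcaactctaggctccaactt
Rpl30-ps10: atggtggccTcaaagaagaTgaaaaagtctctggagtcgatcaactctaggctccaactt
Rps27 (chromosome 3, 90212522 to 90213651, minus strand) and the retrogene Rps27rt (chromosome 9, 114982366 to 114982739, minus strand) had the same coding sequence at all 255 positions, so no read that lies within it can tell the genes apart. It is printed once, all in lower case because no base differs:
Rps27 and Rps27rt: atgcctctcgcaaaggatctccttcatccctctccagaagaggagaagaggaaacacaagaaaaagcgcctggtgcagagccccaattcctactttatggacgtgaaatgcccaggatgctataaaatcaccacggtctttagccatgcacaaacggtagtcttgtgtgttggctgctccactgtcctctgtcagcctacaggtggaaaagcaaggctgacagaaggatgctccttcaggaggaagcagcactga

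The libraries held 17127276 to 18928921 fragments in genes. The share of these in the ribosomal protein genes was 0.806, 0.658 and 0.689% in Angptl2-/- replicates 1, 2 and 3, against 0.892, 0.869 and 0.635% in Angptl2+/+ replicates 1, 2 and 3 (Wilson 95% intervals reach at most 0.00441 percentage points to either side and, like the other intervals below, cover counting error only). The 3 libraries with the highest share, Angptl2-/- replicate 1 and Angptl2+/+ replicates 1 and 2, also had the lowest shares of fragments from the mitochondrial genome, at 4.13, 4.04 and 3.31%, against 4.93 and 5.75% in Angptl2-/- replicates 2 and 3 and 4.56% in Angptl2+/+ replicate 3. The 6 choroid plexus markers summed to 147, 937 and 104 FPKM in Angptl2-/- libraries, against 3.64, 7.39 and 1.64 FPKM in Angptl2+/+ libraries, and all 6 were higher in Angptl2-/- (5 at an unadjusted p under 0.05). The 4 cerebellar markers summed to 5.04 to 7.84 FPKM in Angptl2-/- libraries, against 56.7 FPKM in Angptl2+/+ replicate 1 and 5.12 and 6.79 FPKM in the other Angptl2+/+ libraries. The 5 red blood cell markers summed to 251, 274 and 125 FPKM in Angptl2-/- libraries, against 498, 478 and 302 FPKM in Angptl2+/+ libraries, and all 5 were lower in Angptl2-/- at an unadjusted p under 0.05. The 5 striatal markers summed to 69.8, 125 and 157 FPKM in Angptl2-/- libraries, against 32.9, 84.2 and 60.1 FPKM in Angptl2+/+ libraries, with 5 positive estimates, 3 of them at an unadjusted p under 0.05. The 5 markers of mature oligodendrocytes summed to 390, 560 and 799 FPKM in Angptl2-/- libraries, against 1203, 579 and 626 FPKM in Angptl2+/+ libraries, with 5 negative estimates, 1 of them at an unadjusted p under 0.05. Xist was high in Angptl2-/- replicate 2 and Angptl2+/+ replicates 1 and 2, and Y-linked genes were detected in the other libraries, so the sexes were not spread equally. Angptl2 itself was low in all libraries, at 0.166, 0.320 and 0.126 FPKM in Angptl2-/- and 0.660, 0.958 and 0.290 FPKM in Angptl2+/+ brains, with values that overlapped, and this value sums exons inside and outside the deletion. The part of these differences in the results below was not tested.

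Levels of the ribosomal protein genes spanned a wide range within each subunit. The mean FPKM over the 6 libraries ran from 0.597 to 486 in the large subunit (median 43.4, 46 genes) and from 0.493 to 195 in the small subunit (median 52.7, 32 genes). Rplp1, an acidic protein of the P stalk that recruits elongation factors, had the highest level of all, with 485, 452 and 411 FPKM in Angptl2-/- libraries, against 567, 567 and 437 FPKM in Angptl2+/+ libraries. In the small subunit, Rps3a1 and Rps15 led with 195 and 178 FPKM on average. Summed exon lengths ran from 374 to 6270 bases and were 1.20 to 16.0 times the coding length. FPKM divides by this sum, exons of minor transcripts included, so the order of levels is an order per annotated exon length.

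The 3 lowest members were those that share over 10% of their exon bases with a protein-coding or long noncoding gene on the same strand. This observation was made after their values were seen. Rps10, in which mutations cause Diamond-Blackfan anaemia in humans, had 0.338, 0.359 and 0.343 FPKM in Angptl2-/- libraries, against 0.679, 0.731 and 0.510 FPKM in Angptl2+/+ libraries, from 13 to 30 fragments per library. Its mean of 0.493 FPKM fell below the minimum of 0.5 FPKM for the test, which left 77 members tested, and its genotypes did not overlap. Its pseudogene Rps10-ps2 held 611, 413 and 354 fragments in Angptl2-/- libraries, against 587, 546 and 503 in Angptl2+/+ libraries. The pseudogene thus held far more fragments than the gene in every library. Rpl24, at the interface between the subunits, had 8 to 15 fragments per library and 0.709, 0.633 and 0.474 FPKM in Angptl2-/- libraries, against 0.816, 0.492 and 0.458 FPKM in Angptl2+/+ libraries. Rpl13a had 4.05, 2.77 and 2.22 FPKM in Angptl2-/- and 4.59, 5.96 and 3.62 FPKM in Angptl2+/+ libraries. The overlapping genes RPS10-NUDT3, Gm28037 and Gm45713 cover 20.6, 47.0 and 29.4% of the exon bases of Rps10, Rpl24 and Rpl13a and were listed at 0 in every library. No other member shared over 10% of its exon bases with a protein-coding or long noncoding gene on its strand. On the opposite strand, Tlcd1 covered 59.7% of the exon bases of Rpl23a and Wdr38 66.2% of those of Rpl35, and whether the counts used strand is not stated by the labels or the methods.

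No ribosomal protein gene passed an adjusted p of 0.05 between Angptl2-/- and Angptl2+/+ brains, and most estimates were slightly negative. With limma on log2(FPKM + 0.1), 0 of 77 members and 0% of the 14862 genes tested passed after Benjamini-Hochberg adjustment, and the smallest adjusted p of a member was 0.273. At an unadjusted p under 0.05, 8 members were lower in Angptl2-/- (9.12% of all genes) and 1 was higher (7.09% of all genes). The 8 were Rpl13a, Rpl30, Rpl36, Rpl38 and Rpl41 of the large subunit and Rps15, Rps28 and Rps29 of the small subunit, and the other was Rpl3. With voom on the recovered fragments, 6 members were lower (8.24% of all genes), 1 was higher (7.82% of all genes) and 0 passed the adjusted p. A negative log2 fold change was found in 59 of 77 members, against 50.6% of all genes, and the median was −0.21 in members and 0.00 over all genes. The genotypes did not overlap in 2 of the 77 members tested, lower in Rpl30 and higher in Rpl3, against 22.5% of all genes.

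**Figure D1:**
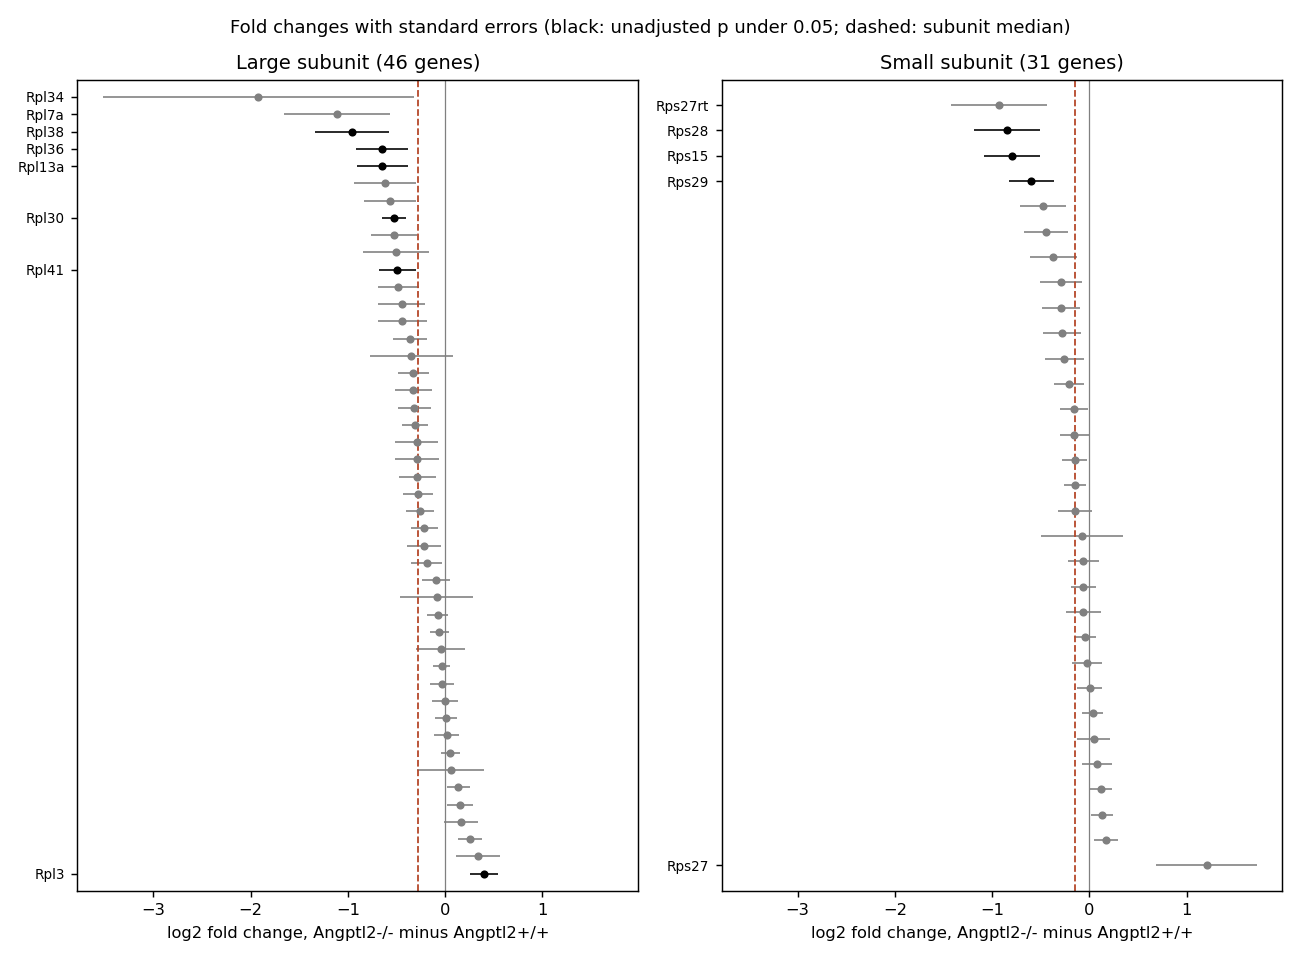
Log2 fold change of each tested ribosomal protein gene, Angptl2-/- minus Angptl2+/+ (x axis, log2 scale, limma estimate with its standard error as a bar), for 46 large subunit genes (left) and 31 small subunit genes (right), sorted by the estimate. Named on the y axis are the genes at an unadjusted p under 0.05 (black) and the 4 genes that jump between libraries. Most points lie left of 0, the dashed medians stand at −0.28 and −0.15, and Rpl34 and Rps27 have the longest bars of their subunits.

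These counts turned on single libraries. The number of members lower at an unadjusted p under 0.05 was 21, 1 and 1 without Angptl2-/- replicate 1, 2 or 3, and 1, 2 and 34 without Angptl2+/+ replicate 1, 2 or 3, and the number higher was 2, 0 and 0, and 3, 1 and 0. Over all genes in the same order of removal, 11.1, 5.32 and 5.62%, and 6.73, 5.93 and 10.8% were lower, and 9.22, 3.24 and 3.13%, and 4.03, 4.55 and 9.24% were higher. The 2 libraries whose removal raised the count of lower members most were Angptl2-/- replicate 1 and Angptl2+/+ replicate 3, and in the subunit means given below Angptl2-/- replicate 1 was the highest of its genotype and Angptl2+/+ replicate 3 the lowest of its genotype. Rescaling without mitochondrial and haemoglobin genes left 2 members lower and 3 higher, and moved the split over all genes to 1728 higher (11.6%) and 857 lower (5.77%), against 1054 higher and 1355 lower before it. Quantile normalization left 5 members lower (7.74% of all genes) and 3 higher (8.92% of all genes), so the balance over all genes also turned.

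The large subunit had the lower median of the pair, with a margin that did not hold under every setting. In the large subunit, 36 of 46 estimates were negative and the median log2 fold change was −0.28. In the small subunit, 23 of 31 were negative and the median was −0.15. Both medians were negative under every alternative run. The order of the medians turned under a loess correction for GC content (−0.18 in the large and −0.21 in the small subunit) and without Angptl2-/- replicate 3 (−0.1611 in the large and −0.1648 in the small subunit).

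Within libraries the 2 subunits moved together. The mean of log2(FPKM + 0.1), centred on each gene, was 0.05, −0.25 and −0.22 for the large subunit in Angptl2-/- replicates 1, 2 and 3, against 0.31, 0.23 and −0.13 in Angptl2+/+ replicates 1, 2 and 3. For the small subunit it was 0.07, −0.22 and −0.09 in Angptl2-/- libraries, against 0.26, 0.18 and −0.19 in Angptl2+/+ libraries. The difference, large minus small, was −0.02, −0.03 and −0.13 in Angptl2-/- libraries, against 0.06, 0.05 and 0.07 in Angptl2+/+ libraries. All 3 Angptl2-/- values thus lay below all 3 Angptl2+/+ values, but with near-identical copies summed the differences were 0.03, 0.03 and −0.17 in Angptl2-/- libraries, against 0.03, 0.09 and −0.01 in Angptl2+/+ libraries, and the genotypes overlapped. Fragments of the large subunit were 1.30, 1.32 and 1.19 times those of the small subunit in Angptl2-/- libraries, against 1.31, 1.36 and 1.26 times in Angptl2+/+ libraries.

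**Figure D2:**
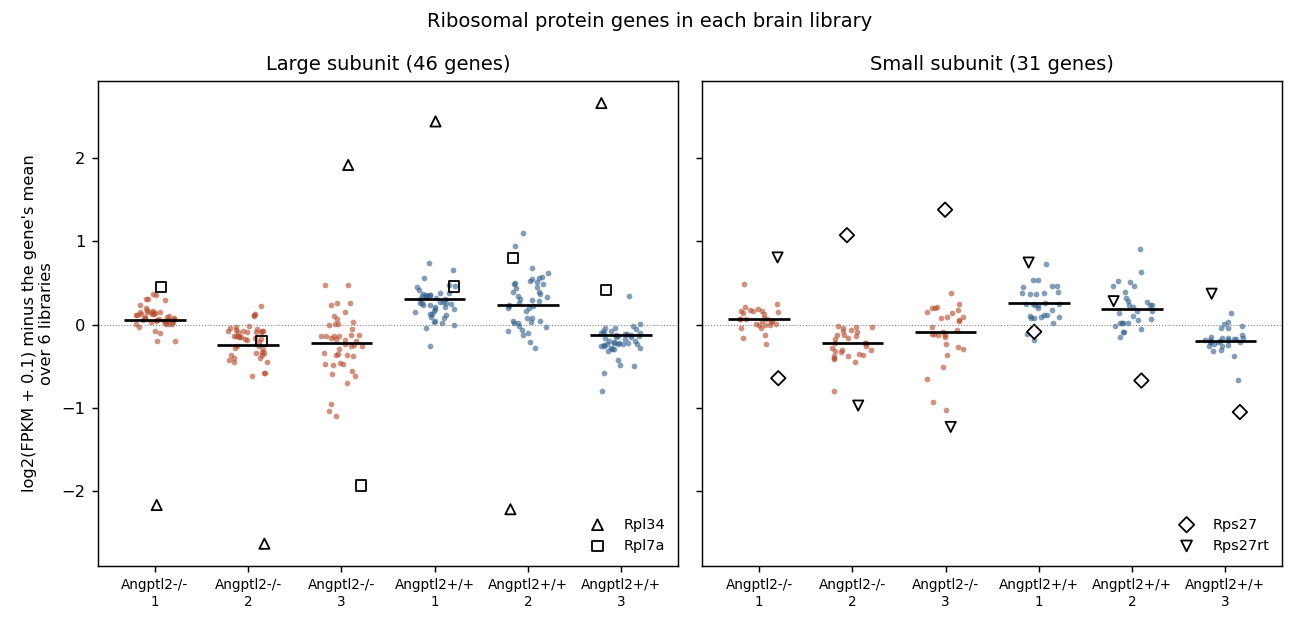
Level of each tested ribosomal protein gene in each library, as log2(FPKM + 0.1) minus the mean of that gene over the 6 libraries (y axis), with Angptl2-/- libraries in red and Angptl2+/+ libraries in blue. Horizontal bars are the means of the subunit in that library, and open symbols are the 4 genes that jump. The bars of both subunits stand above 0 in Angptl2-/- replicate 1 and in Angptl2+/+ replicates 1 and 2, and below 0 in the other libraries.

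The order of the libraries was shared by most members and crossed the genotypes. In 50 of 77 members (64.9%), 34 of the large and 16 of the small subunit, the 3 highest libraries were Angptl2-/- replicate 1 and Angptl2+/+ replicates 1 and 2, as in 13.1% of all genes tested, while the 3 other libraries were the highest in 14.4% of all genes. Angptl2-/- replicate 3 was among the 3 highest, with Angptl2-/- replicate 1 and Angptl2+/+ replicate 1, in a further 11 members. The highest value fell in Angptl2-/- replicates 1, 2 and 3 for 7, 0 and 12 members, against 30, 26 and 2 members for Angptl2+/+ replicates 1, 2 and 3. The lowest fell there for 2, 27 and 24 members, against 0, 0 and 24 members. No member thus had its lowest value in Angptl2+/+ replicate 1 or 2. The 3 libraries of the common order, Angptl2-/- replicate 1 and Angptl2+/+ replicates 1 and 2, had the lowest mitochondrial shares, and with mitochondrial and haemoglobin genes left out of the scaling the median over the members was −0.15, with 49 negative and 28 positive. The part of library composition in this order was not tested further.

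Among the large subunit genes lower in Angptl2-/- brains, Rpl38 had the largest difference of those at an unadjusted p under 0.05. Rpl38, which in mouse embryos favours translation of a subset of Hox mRNAs, had 46.5, 36.4 and 21.5 FPKM in Angptl2-/- libraries, against 77.5, 89.2 and 38.7 FPKM in Angptl2+/+ libraries. Its log2 fold change was −0.96 ± 0.38 (SE, limma adjusted p = 0.290), and Angptl2-/- replicate 1 lay above Angptl2+/+ replicate 3. Rpl36 had 117, 82.9 and 72.7 FPKM in Angptl2-/- and 176, 164 and 94.9 FPKM in Angptl2+/+ libraries (log2 fold change −0.65 ± 0.27, limma adjusted p = 0.304). The same 2 libraries overlapped in Rpl36. Rpl41, the shortest ribosomal protein with a coding sequence of 78 bases, had 134, 111 and 95.3 FPKM in Angptl2-/- and 171, 187 and 124 FPKM in Angptl2+/+ libraries (log2 fold change −0.49 ± 0.19, limma adjusted p = 0.286). Rpl13a, which in human cells can leave the ribosome to repress inflammatory mRNAs, had a log2 fold change of −0.64 ± 0.26 (limma adjusted p = 0.292) at the low levels given above. Angptl2-/- replicate 1 exceeded Angptl2+/+ replicate 3 in all 4 of these genes, and their genotypes overlapped.

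Rpl30 was the only large subunit gene with every Angptl2-/- library below every Angptl2+/+ library. Rpl30, a protein that binds kinked RNA and in yeast blocks splicing of its own transcript, had 8.72, 7.28 and 9.10 FPKM in Angptl2-/- libraries, against 11.4, 11.9 and 12.7 FPKM in Angptl2+/+ libraries. The log2 fold change was −0.53 ± 0.12 (SE, limma unadjusted p = 0.00288, adjusted p = 0.273). Rpl30-ps10 and Gm12191, whose differences from Rpl30 are given above, together held 364, 329 and 356 fragments in Angptl2-/- libraries, against 407, 287 and 32 in Angptl2+/+ libraries. The share of the sum on Rpl30 was 58.1, 53.0 and 55.8% in Angptl2-/- libraries, against 60.3, 69.1 and 95.3% in Angptl2+/+ libraries, with exact 95% intervals that reach at most 3.77 percentage points to either side. Angptl2+/+ replicate 3 stood apart, with few fragments on the copies and an interval of 93.5 to 96.8%. With all near-identical copies added, the log2 fold change of Rpl30 was −0.11 ± 0.15.

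Rpl3 was higher in every Angptl2-/- library than in any Angptl2+/+ library. Rpl3, which reaches close to the centre where the peptide bond is formed, had 78.0, 83.6 and 85.4 FPKM in Angptl2-/- libraries, against 59.7, 75.8 and 53.5 FPKM in Angptl2+/+ libraries. Its log2 fold change was 0.40 ± 0.14 (limma unadjusted p = 0.0244, adjusted p = 0.277). Rpl3-ps1 held 1198, 309 and 844 fragments in Angptl2-/- libraries, against 2138, 1219 and 1304 in Angptl2+/+ libraries, so that the pseudogene ran the other way. The share of the sum on Rpl3 was 79.9, 93.5 and 84.0% in Angptl2-/- libraries, against 61.3, 77.8 and 68.8% in Angptl2+/+ libraries (exact 95% intervals reach at most 1.43 percentage points to either side). With copies added, the log2 fold change was 0.08 ± 0.12, and no member was higher at an unadjusted p under 0.05. The other large subunit genes with the smallest p among positive estimates were Rpl10, Rpl39, Rpl26 and Rpl7, with log2 fold changes of 0.25, 0.34, 0.14 and 0.15, none past an unadjusted p of 0.05. Rpl10, the protein whose late joining completes the large subunit, had 82.5, 74.2 and 89.3 FPKM in Angptl2-/- and 76.0, 70.8 and 59.9 FPKM in Angptl2+/+ libraries, which overlapped. Rpl39, which lines the exit tunnel, had 36.2, 42.2 and 54.1 FPKM in Angptl2-/- and 46.8, 31.8 and 27.5 FPKM in Angptl2+/+ libraries, with Angptl2+/+ replicate 1 above 2 of the 3 Angptl2-/- libraries.

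The small subunit genes lower at an unadjusted p under 0.05 were 3 of the 31 tested, Rps15, Rps28 and Rps29, against 9.12% of all genes. Rps15, whose tail reaches the decoding site, had 190.1, 122 and 87.1 FPKM in Angptl2-/- libraries, against 241, 257 and 171 FPKM in Angptl2+/+ libraries, with Angptl2-/- replicate 1 above Angptl2+/+ replicate 3. It averaged 133 ± 52.4 FPKM in Angptl2-/- and 223 ± 45.9 FPKM in Angptl2+/+ brains (SD, n = 3 each). The estimate on the log2 scale was −0.79 ± 0.29 (SE, limma adjusted p = 0.279). Rps29, a zinc-binding protein of the head, had 50.7, 43.7 and 32.3 FPKM in Angptl2-/- and 73.9, 72.9 and 46.2 FPKM in Angptl2+/+ libraries (log2 fold change −0.60 ± 0.23, limma adjusted p = 0.288). Rps28, near the exit of the mRNA, had 11.0, 7.41 and 4.75 FPKM in Angptl2-/- and 12.8, 18.5 and 9.70 FPKM in Angptl2+/+ libraries (log2 fold change −0.85 ± 0.34, limma adjusted p = 0.291). In all 3 genes the lowest library was Angptl2-/- replicate 3 and the genotypes overlapped at Angptl2-/- replicate 1 and Angptl2+/+ replicate 3. Summing copies left their log2 fold changes at −0.79, −0.66 and −0.87. Rps9 had a log2 fold change of −0.48 ± 0.23, not past an unadjusted p of 0.05. Positive estimates were small apart from Rps27, with 0.17 ± 0.13 for Rps15a, 0.13 ± 0.11 for the X-linked Rps4x, 0.12 ± 0.11 for Rps3a1 and 0.08 ± 0.15 for Rps12, which turned negative with the GC correction and without Angptl2-/- replicate 3.

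The genes of the P stalk, the flexible arm of the large subunit that recruits translation factors, all had negative estimates with overlapping genotypes, though Rplp0, Rplp1 and Rpl12 turned slightly positive with the GC correction, Rplp0 also with the length correction, and Rpl12 also under quantile normalization and when rescaled without mitochondrial and haemoglobin genes. Rplp2 had 27.5, 23.8 and 26.6 FPKM in Angptl2-/- and 34.6, 40.9 and 24.3 FPKM in Angptl2+/+ libraries (log2 fold change −0.33 ± 0.19). Rplp1 gave −0.22 ± 0.14 and Rplp0, the scaffold of the stalk, −0.08 ± 0.11. Rpl12, at the base of the stalk, was the steadiest member, with 28.0, 25.7 and 27.3 FPKM in Angptl2-/- and 28.0, 27.6 and 27.4 FPKM in Angptl2+/+ libraries, a highest value 1.09 times the lowest. The sums over the 4 genes were 675, 616 and 586 FPKM in Angptl2-/- libraries, against 768, 766 and 611 FPKM in Angptl2+/+ libraries. Rpl4, at high levels, also varied little, with 157, 147 and 155 FPKM in Angptl2-/- and 171, 159.8 and 149 FPKM in Angptl2+/+ libraries, and Rps2, near the mRNA entry, had 140.2, 125 and 127 FPKM in Angptl2-/- and 139.7, 162 and 134 FPKM in Angptl2+/+ libraries.

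Values that jump between libraries were found in 4 of the 77 members tested, close to the share of all genes given next. None of the 4 jumps followed the genotype alone. A gene was taken to jump where the largest gap between neighbouring libraries, sorted on log2(FPKM + 0.1), was at least 1, which 5.42% of all genes tested did. The genes and their gaps were Rpl34 (4.08), Rpl7a (1.74), Rps27rt (1.25) and Rps27 (1.16). Just below the threshold were Rpl23a (0.963), Rpl21 (0.797) and Rpl38 (0.756), and the median gap was 0.283 in the large and 0.219 in the small subunit. The jumping genes had the largest standard errors of their subunits, which follows largely from how they were picked, since a gap within a genotype widens the spread.

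Rpl34, a protein of the large subunit, had the widest jump. It had 0.533, 0.359 and 10.6 FPKM in Angptl2-/- libraries, against 15.3, 0.511 and 17.9 FPKM in Angptl2+/+ libraries, a highest value 49.8 times the lowest. The low libraries were Angptl2-/- replicates 1 and 2 and Angptl2+/+ replicate 2, so each genotype held both states, and the log2 fold change of −1.92 had an SE of 1.60. In fragments, Rpl34 had 27, 16 and 460 in Angptl2-/- libraries, against 722, 24 and 801 in Angptl2+/+ libraries. Rpl34-ps1 had 1469, 1170 and 776 fragments in Angptl2-/- libraries, against 858, 1359 and 39 in Angptl2+/+ libraries, high where Rpl34 was low. The share of the sum on Rpl34 was 1.80, 1.35 and 37.2% in Angptl2-/- libraries, against 45.7, 1.74 and 95.4% in Angptl2+/+ libraries. The shares near 2% had exact 95% intervals within 0.773 to 2.62%, the middle shares had intervals of 34.5 to 40.0% and 43.2 to 48.2%, and the high share had 93.7 to 96.7%, so the low, middle and high shares were separated beyond counting error. The sum of both genes was 1496, 1186 and 1236 fragments in Angptl2-/- libraries, against 1580, 1383 and 840 in Angptl2+/+ libraries. With copies added, the log2 fold change of Rpl34 was 0.09 ± 0.20 and its largest gap 0.472. Whether the bases at T132C and C318G, given above, account for the assignment of these fragments was not tested, since the reads were not analysed here.

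Rps27 and Rps27rt ran opposite to each other. Rps27, a zinc-finger protein of the small subunit, had 18.0, 59.4 and 73.4 FPKM in Angptl2-/- libraries, against 26.5, 17.6 and 13.6 FPKM in Angptl2+/+ libraries. Rps27rt had 179.6, 52.3 and 43.7 FPKM in Angptl2-/- libraries, against 172, 125 and 133 FPKM in Angptl2+/+ libraries. Angptl2-/- replicates 2 and 3 stood apart from the other 4 libraries in both genes, in opposite directions. The share of their summed fragments on Rps27 was 21.8, 76.0 and 82.4% in Angptl2-/- libraries, against 30.1, 28.3 and 22.2% in Angptl2+/+ libraries, with exact 95% intervals that reach at most 2.69 percentage points to either side. The opposite log2 fold changes of 1.21 ± 0.52 for Rps27 and −0.93 ± 0.49 for Rps27rt became 0.26 ± 0.16 for the sum with copies. Since the coding sequences are identical, only bases outside them could separate the genes.

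Rpl7a, which binds kinked RNA in the large subunit, was low in 1 library. It had 11.9, 7.55 and 2.19 FPKM in Angptl2-/- libraries, against 11.9, 15.1 and 11.6 FPKM in Angptl2+/+ libraries, and 64 fragments in Angptl2-/- replicate 3 against 227 to 479 in the others. Its 29 near-identical copies also had the fewest fragments there, with 276, 196 and 153 in Angptl2-/- libraries, against 340, 321 and 209 in Angptl2+/+ libraries. Unlike the pairs above, the copies were not high where the gene was low, and the sum stayed lowest in Angptl2-/- replicate 3, at 217 fragments against 423 to 800. The log2 fold change was −1.12 ± 0.54 alone and −0.77 ± 0.33 with copies, and the largest gap fell to 0.911.

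**Figure D3:**
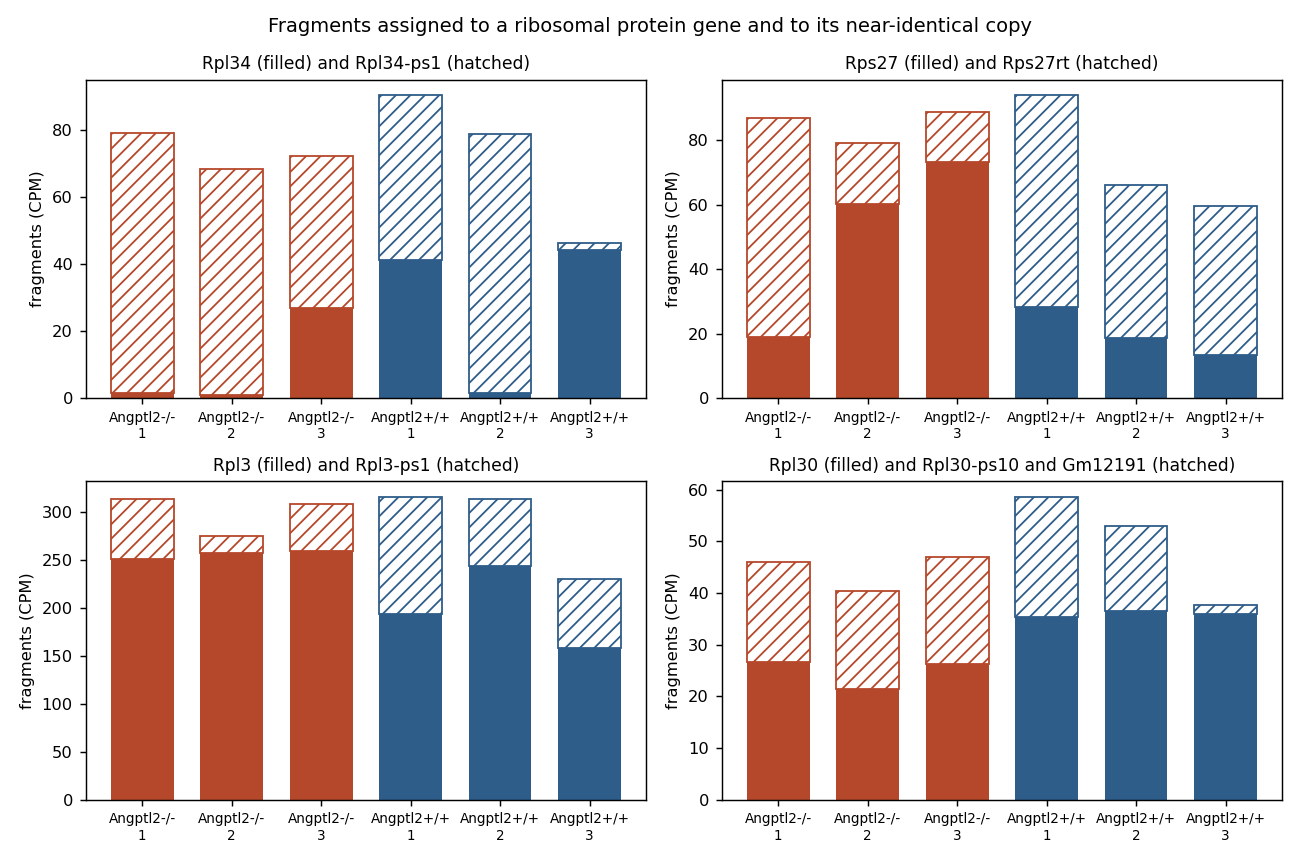
Fragments scaled to library depth (y axis, CPM) assigned to Rpl34, Rps27, Rpl3 and Rpl30 (filled) and to the near-identical copies named in each title (hatched), in each Angptl2-/- library (red) and Angptl2+/+ library (blue). The filled part of Rpl34 is close to 0 in Angptl2-/- replicates 1 and 2 and Angptl2+/+ replicate 2 while the whole bar is not, and the filled part of Rps27 is largest in Angptl2-/- replicates 2 and 3.

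Near-identical copies were the rule among these genes. Of the 78 members, 74 had at least 1 and 4 had none, among them Rpl8, Rplp2 and Rps3. The copies that are not members numbered 538, of which 179 had no fragment in any library and 48 had a mean of at least 50 fragments. Rpl21 had the most copies (53), then Rpl7a (29), Rpl29 (26) and Rps2 (23). The copies held more fragments than the gene itself for 6 members, from 55.9% for Rps27 to 96.4% for Rps10, with Rpl21, Rpl17, Rpl24 and Rpl34 between them. Of the 48 copies with a mean of at least 50 fragments, 7 had a largest gap of at least 1 between libraries. Among them were Rpl34-ps1, Rpl3-ps1, Rpl30-ps10 and Gm12191. For copies the gap was taken on log2(fragments + 1), not scaled to depth. A further 20 matches lay in genes that are neither members nor typed or named as pseudogenes, and these were not added. They include host genes such as BC004004 for Rpl21. They also include the short genes Gm10076 for Rpl41 and Gm2000 for Rpl35, with means of 125 and 95.5 fragments.

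When copies were added to their members, an alternative chosen after the data were seen, no member jumped and the subunit medians were little changed. The count of members with a gap of at least 1 fell to 0 of 77, with a highest gap of 0.911 for Rpl7a. The members lower at an unadjusted p under 0.05 numbered 8 (9.1% of all genes), of which 7 were lower without summing too, with Rpl37 in place of Rpl30, and those higher numbered 0 (7.09% of all genes). The medians were −0.25 in the large and −0.14 in the small subunit. Estimates near 0 after summing, for Rpl3, Rpl30 and Rpl34, stood beside estimates that summing changed little, such as Rpl38 (−0.96 alone, −0.89 with copies) and Rps15. Rpl24, itself with few fragments, moved away from 0, from 0.06 ± 0.34 alone to −0.47 ± 0.31 with copies. Its largest gap rose from 0.308 to 0.733.

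**Figure D4:**
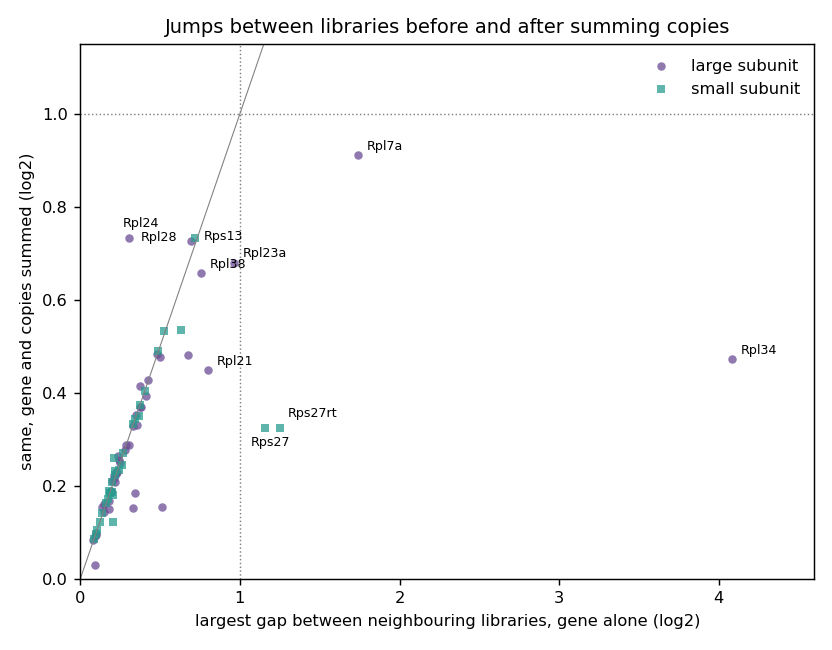
Largest gap between neighbouring libraries on the log2 scale for each tested ribosomal protein gene alone (x axis) and with its near-identical copies summed (y axis). The grey line marks equal values and the dotted lines the threshold of 1. The 4 genes right of the vertical line, Rpl34, Rpl7a, Rps27rt and Rps27, all lie below the horizontal line.

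The shortest members had the most negative median. The median log2 fold change was −0.50 in 11 members with up to 1000 exon bases, −0.24 in 32 with up to 2000, −0.07 in 28 with up to 4000 and −0.15 in 6 longer ones. Over all genes tested, the medians of the same classes were −0.15, −0.13, −0.06 and 0.05. Across the 77 members the log2 fold change correlated with log2 coding length at r = 0.24 and with GC content at r = −0.19, a description over genes that share libraries and are not independent. Without the 4 jumping genes the r was 0.41 with coding length and −0.30 with GC content over 73 genes. With log2 exon length the r was 0.20 over the 77 members and 0.34 over the 73. A loess correction of each library for exon length left 3 members on the lower and 2 on the higher side at an unadjusted p under 0.05 (8.77 and 6.15% of all genes), with 51 negative and 26 positive estimates.

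The starts of these genes shared sequence that the rule did not use. RefSeq (GRCm38.p6) gave 58 of the 78 members a window of 300 bases, 250 before and 50 after the annotated start. Either strand held CTTTCC, a pyrimidine run of the kind found in TOP tracts, in 30 of 58 members (51.7%), against 29.3% of 27025 genes, with 21 of 34 in the large and 9 of 24 in the small subunit. CCGGAAG, a core bound by ETS family factors, was in 24 members (41.4%), against 9.93% of genes. AAGATGG, a core of YY1 sites, was in 9 (15.5%), against 7.28%, and TATAAA, the TATA box, in 6 (10.3%), against 15.7%. These matches are letters in a window and were not tied to the RNA levels. Within 15 bases of the start, on the strand of the gene, CTTTCC was found in 10 of 58 members (17.2%), against 1.67% of genes. These 30 bases are shown for 6 members picked as examples after the matches were seen, 5 that hold CTTTCC there and Rplp2, which does not. They are Rps27 (chr3:90213634-90213663, minus strand), Rps27rt (chr9:114982725-114982754, minus strand), Rpl38 (chr11:114668565-114668594, plus strand), Rpl28 (chr7:4792950-4792979, plus strand), Rpl15 (chr14:18270972-18271001, minus strand) and Rplp2 (chr7:141447636-141447665, plus strand), with CTTTCC in capitals:
Rps27: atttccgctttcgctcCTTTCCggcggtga
Rps27rt: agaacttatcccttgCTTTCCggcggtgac
Rpl38: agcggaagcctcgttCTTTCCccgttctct
Rpl28: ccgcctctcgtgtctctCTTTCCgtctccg
Rpl15: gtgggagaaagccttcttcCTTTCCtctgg
Rplp2: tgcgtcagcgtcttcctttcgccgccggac

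Other genes of the pathway had medians nearer to 0. The 40 ribosome assembly factors had 21 negative and 19 positive estimates (median −0.03), and 3 passed an unadjusted p of 0.05 in each direction (over all genes, 9.12% lower and 7.09% higher). The 19 other genes with TOP mRNAs had 10 negative and 9 positive estimates (median −0.02), and 3 passed on the lower and 2 on the higher side, against the same shares over all genes. Among them Fau, which encodes a small subunit protein fused to a ubiquitin-like domain, had 98.9, 86.4 and 96.5 FPKM in Angptl2-/- libraries, against 128, 144 and 104 FPKM in Angptl2+/+ libraries, without overlap (log2 fold change −0.40 ± 0.14, limma adjusted p = 0.277). Rack1, a scaffold on the head of the small subunit, had 30.3, 24.6 and 27.2 FPKM in Angptl2-/- and 30.9, 30.0 and 27.1 FPKM in Angptl2+/+ libraries, which overlapped. Eef1a1, the elongation factor that delivers aminoacyl-tRNA, had 837, 754 and 711 FPKM in Angptl2-/- and 716, 719 and 625 FPKM in Angptl2+/+ libraries, and Eef2, which drives translocation, had 339.8, 289 and 263 FPKM in Angptl2-/- and 374, 375 and 348 FPKM in Angptl2+/+ libraries.

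Groups within the members varied around the common median. Of 18 members mutated in human Diamond-Blackfan anaemia, a failure of red blood cell production, 17 were tested, with 13 negative estimates, a median of −0.29 and 2 lower at an unadjusted p under 0.05, against 9.12% of all genes. The 8 proteins at the rim of the exit tunnel had 4 negative and 4 positive estimates (median −0.13), and the 4 at the mRNA exit had 3 negative (median −0.10). The 5S RNA partners Rpl5 and Rpl11 differed in their estimates, at 0.05 ± 0.10 and −0.56 ± 0.27. The 4 X-linked members Rpl10, Rpl36a, Rpl39 and Rps4x had 3 positive estimates and a median of 0.19. Of 8 paralogues that the rule left out, 4 were tested, among them Rps4l, with 12.8, 14.1 and 15.7 FPKM in Angptl2-/- and 22.6, 16.5 and 14.0 FPKM in Angptl2+/+ libraries, and Rpl22l1, with 11.1, 9.41 and 7.67 FPKM in Angptl2-/- and 13.0, 9.76 and 6.13 FPKM in Angptl2+/+ libraries.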

How the data were processed

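Brain RNA of 3 Angptl2-/- and 3 Angptl2+/+ samples was sequenced in paired 150-base reads, and the authors deposited 1 FPKM value per gene and library. Their processing notes name Bowtie 0.12.2 and mm8, but 54495 of 54532 gene identifiers matched GENCODE M21 (GRCm38), which was used for symbols and exons. The sources used here give no counting tool, filter or strand setting. FPKM times exon length gave whole fragments (tolerance 0.05) for 96.6 to 96.8% of values above 0, which give depth, copy shares and the voom alternative. Genes with a mean of at least 0.5 FPKM were tested with limma 3.58.1 (R 4.3.3, intensity trend) on log2(FPKM + 0.1), which understates changes of low genes, with Benjamini-Hochberg adjustment over 14862 genes. Copies came from blastn 2.17.0; tables and figures used Python 3.11.15. Members and lists were chosen with earlier results of these data known. Full statistics go to up to 5 members per subunit and direction with the smallest p, the 3 highest per subunit, jumping members and the P stalk. Some genes that this rule names are not reported here. Tests were tried on simulated data. Copies named after their values were seen are Rps10-ps2, Rpl3-ps1, Rpl30-ps10 and Gm12191. Alternatives changed pseudocount, filter, scaling, test, GC and length correction, moderation, blocking, libraries and copies.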

Additional observations from a re-analysis of the deposited data

How the results depend on the processing

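No member passed the adjusted p of 0.05 under any alternative run, and both subunit medians stayed negative. Leaving out 1 library at a time moved the large subunit median between −0.44 and −0.16 and the small subunit median between −0.27 and −0.07, the members lower at an unadjusted p under 0.05 (8 with all libraries) between 1 and 34, those higher (1) between 0 and 3, and the jumping members (4) between 3 and 6; over all genes 5.32 to 11.1% were lower and 3.13 to 9.24% higher. Lower and higher members numbered 5 and 3 under quantile normalization, 2 and 3 when rescaled without mitochondrial and haemoglobin genes, 3 and 2 with a length correction, 6 and 4 with a GC correction, 2 and 1 without the intensity trend, and 8 and 0 with copies merged. Over all genes these settings called 7.74 and 8.92%, 5.77 and 11.6%, 8.77 and 6.15%, 4.31 and 2.75%, 8.09 and 6.26%, and 9.1 and 7.09% lower and higher. The labels do not say whether replicate numbers mark pairs or batches. The deviations of same-numbered libraries correlated at 0.04, −0.07 and 0.16. Angptl2-/- replicate 1 correlated best with Angptl2+/+ replicate 2 (0.26). Angptl2-/- replicates 2 and 3 both correlated best with Angptl2+/+ replicate 3 (0.10 and 0.16). With the replicate number as a block, 23 members were lower and 1 higher (10 and 7.83% of all genes). A gap threshold of 0.5 gave 14 jumping members and of 2 gave 1, and merging copies gave 0. Of 29 members described with full statistics, 9 changed sign somewhere, 15 times in all. The log2 fold change became 0.0094 for Rpl12 and 0.0252 for Rpl4 under quantile normalization, and 0.0278 for Rpl12 and 0.0035 for Rpl4 when rescaled. With the GC correction it became 0.0048 for Rpl12, −0.0174 for Rpl7, 0.0193 for Rplp0, 0.0363 for Rplp1, −0.0823 for Rps12 and 0.0518 for Rps2, and with the length correction 0.016 for Rpl4 and 0.0075 for Rplp0. Leaving out 1 library moved it between −0.0255 (without Angptl2-/- replicate 3) and 0.2224 for Rps12, and with copies merged it became 0.0856 for Rpl34 and 0.2561 for Rps27rt. The causes were not tested, apart from merging, which by construction gives Rps27 and Rps27rt the same sum. At these depths Rps10 and Rpl24, with at most 30 fragments, could show only large differences.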
